A study of Mus musculus with 22 samples.

Results

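Stem cells and secretory progenitors of the mouse colon crypt were compared by the RNA of 7 sorted libraries, 3 of stem cells (Stem) and 4 of SecPDG cells, out of 22 libraries from 6 sorted cell types. SecPDG stands for a sort of secretory progenitors, deep crypt secretory cells and possibly goblet cells. The libraries were chosen by their labels alone, and all genes were tested and then described by function. Both groups came from untreated, wild type, male C57BL/6N mice aged 5 to 7 weeks, and the whole colon was dissociated with EDTA and mechanical force. Both sorts took live Epcam+ cells and excluded cells with Cd31 or Cd45. The stem cell gate was Cd44highest with Cd24low and no Ckit, while the SecPDG gate was Cd44hi with Cd24med and Ckitmed. These are the gates of the sample labels, and the study's text places SecPDG cells at medium Cd44. A Stem library came from 1 mouse and a SecPDG library from a pool of several mice, so the spread between libraries does not have the same meaning in both groups. The libraries of a group came from separate mice and separate sorts, and sorts were pooled where cells were few.

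At the crypt base, stem cells are kept by Wnt and Notch signals and divide to give progenitors of either lineage. A progenitor that loses Notch activity turns on Atoh1, displays Notch ligands to its neighbors and becomes secretory. Goblet cells make and store mucins, which need folding, disulfide bonding and dense O-glycosylation in the endoplasmic reticulum (ER) and Golgi. Deep crypt secretory cells sit between the stem cells of the colon, where Paneth cells are lacking, and are known for Reg4, Kit and Egf.

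Each library held 15314543 to 22462518 counts in genes, with SecPDG the lower group (15314543 to 18628984). Spearman's rho over 13188 genes was 0.964 to 0.983 between Stem libraries, 0.951 to 0.985 between SecPDG libraries and 0.880 to 0.929 across the groups. SecPDG replicate 1 had a rho of 0.951 to 0.956 to the other SecPDG libraries, against 0.976 to 0.985 among those. It also had the fewest genes detected of the SecPDG libraries, 12750 against 15406 to 20361. SecPDG replicate 2 stood apart by its mucus genes. Its 10 most abundant genes took 23.6% of the counts against 13.3% to 15.4% in the other SecPDG libraries, and Muc2 alone took 5.15%. In Stem replicate 1 the 10 most abundant genes also took a larger share, 20.8% against 10.7% and 11.9% in the other Stem libraries. Muc2 took only 0.116% of its counts. The deposited count tables of both groups carry names of different forms, which may mark separate runs, and a run and the cell type cannot be told apart. In a sorted bulk sample, fewer cells of a type and less RNA per cell also cannot be told apart.

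To find which genes separate secretory progenitors from stem cells, counts were tested in 1 edgeR quasi-likelihood fit over the 22 libraries. The threshold was an adjusted p (Benjamini-Hochberg) under 0.01, and called genes also averaged 50 normalized counts or more over those libraries, where counts are scaled to a common effective library size by the trimmed mean of M values (TMM). Of 22781 genes tested, 1134 (4.98%) were called. SecPDG was higher in 770 (3.38% of the genes tested) and lower in 364 (1.60%), a ratio of 2.12. The increases were also larger, since 247 of the called genes were more than 8-fold higher in SecPDG and 23 were more than 8-fold lower. The median log2 fold change (SecPDG minus Stem throughout) of the 13188 genes that averaged 50 counts or more was -0.06. The Stem and SecPDG libraries did not overlap for 1115 of the 1134 called genes, against 18.6% of all genes tested. The count of lower genes rests on each library, and it was 203, 212 and 225 without SecPDG replicate 1, 2 or 3. Without Stem replicate 1, which moved the total most, 517 genes were higher and 247 lower. When counts were divided by library totals alone, 830 genes were higher and 1050 lower, with the median gene at -0.29 in place of -0.06. Directions given below are therefore relative to the TMM scale. Of 857 members of the gene lists and named genes, 90 stood above 0 on that scale, by at most 0.26, and below 0 under library totals, and 0 of these were called. Epcam, Mki67, Sox9, Ephb2, Ctnnb1, Cdx1, Sec24b, Egfr and Spry2 are among the 90, so that their values below carry no direction.

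**Figure D1:**
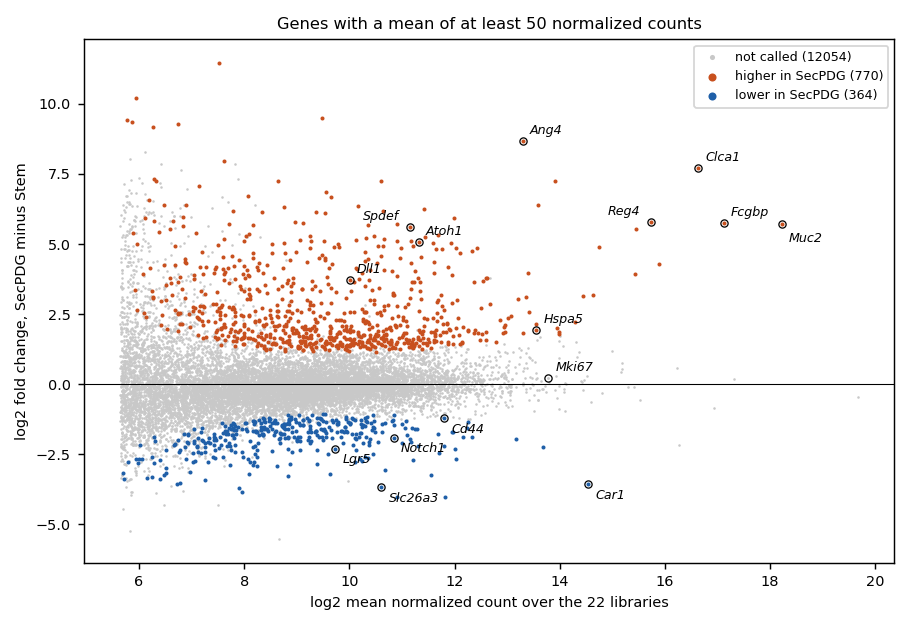
Log2 fold change (SecPDG minus Stem, vertical axis) against the log2 mean normalized count over the 22 libraries (horizontal axis) for the 13188 genes with a mean of at least 50. Orange points are the 770 genes called higher in SecPDG, blue points the 364 called lower and grey points those not called; mucus genes such as Muc2 and Fcgbp lie far to the right and above log2 5, and genes at 0 in every Stem library are drawn at the fitted value, which is not a measured fold.

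Cd44 transcripts were lower and Kit transcripts higher in SecPDG. Cd44, the hyaluronan receptor that served as the main sort marker, had 9577, 9502 and 10720 normalized counts in the 3 Stem libraries and 3865, 4176, 4418 and 4665 in the 4 SecPDG libraries, in order of their replicate numbers. Every SecPDG library was below every Stem library, and Cd44 fell by 1.21 on the log2 scale (edgeR adjusted p = 0.00531). It was not called without Stem replicate 1 or any 1 of the SecPDG libraries, where the adjusted p rose to at most 0.0276. Kit, the receptor for stem cell factor, rose from 454, 205 and 542 to 6069, 9232, 6713 and 6782 counts (log2 4.17 ± 0.43, SE, adjusted p = 4.64e-11). Cd24a had 4258, 3806 and 4595 counts in Stem and 13690, 12490, 15440 and 12990 in SecPDG without overlap, but at log2 1.70 its adjusted p of 0.0133 missed the threshold. Epcam, the epithelial marker common to both gates, had 21590, 25910 and 27330 counts in Stem and 22830, 31250, 26820 and 30800 in SecPDG. The groups overlapped, and its log2 of 0.16 became -0.08 under library totals.

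Several genes of the stem cell program fell in SecPDG. Of 24 Wnt and crypt base stem cell genes, 7 fell and none rose, with a median log2 fold change of -0.42. The 7 include Cd44, a marker of both gates, so that its fall is not independent of the sort. Lgr5 (chr10:115450311-115587780, GRCm38, minus strand), the receptor for R-spondins that marks crypt base stem cells, had 2594, 2006 and 3197 counts in Stem and 482, 441, 465 and 718 in SecPDG. It fell 4.93-fold (log2 -2.30 ± 0.31, SE, adjusted p = 1.31e-07). Ascl2, a transcription factor required by intestinal stem cells, went from 449.8, 445 and 559.9 to 17, 64.7, 206 and 127 counts (log2 -2.17, adjusted p = 3.32e-04), and SecPDG replicate 1 was the lowest. Without SecPDG replicate 3 its log2 was -2.80. Smoc2 at log2 -1.53 and Cdca7 at -1.52 were the next in size. Axin2 and Rnf43, which Wnt signals induce and which restrain the pathway, fell by 1.11 each, from 4499, 4155 and 5314 to 1851, 2090, 2237 and 2438 counts and from 3702, 2817 and 3409 to 1635, 1666, 1355 and 1495 counts. These are near the threshold, with adjusted p = 0.00966 and 0.00657, and Axin2 was not called when any 1 of the 7 libraries was left out. Rnf43 was called only in the fits without Stem replicate 2 or 3. The list held 4 called genes in place of 7 without Stem replicate 1 or any 1 of the SecPDG libraries.

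Other members of the list were not called. Sox9, a transcription factor of stem and secretory cells, stood at log2 0.05, Ephb2, a receptor that positions cells along the crypt, at 0.19, and Ctnnb1, the beta-catenin gene, at 0.13. Myc had 3298, 2462 and 3020 counts in Stem and 1370, 1524, 1383 and 1469 in SecPDG without overlap (log2 -1.03, adjusted p = 0.0371), so that it missed the threshold.

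In the Notch pathway, the ligands Dll1 and Dll4 rose, and 2 receptors and 2 targets fell. Of 21 genes, 3 rose and 4 fell. Dll1, the ligand of newly secretory cells (chr17:15367354-15376872, GRCm38, minus strand), had 172, 216 and 238 counts in Stem and 2556, 3088, 2514 and 2774 in SecPDG, a rise of 13-fold (log2 3.70 ± 0.37, SE, adjusted p = 1.42e-11). Dll4, the other Delta ligand of the crypt, rose from 243, 288 and 361 to 808, 1718, 1120 and 1339 counts (log2 2.06, adjusted p = 1.76e-05). Nov (also named Ccn3), a secreted matricellular protein that can bind Notch1, had 31.4, 40.3 and 6.06 counts in Stem and 2583, 896, 3123 and 1808 in SecPDG, 81.1-fold higher at adjusted p = 1.59e-11 (log2 6.34, or 6.98 without Stem replicate 2). The 4 that fell were receptors and targets. Notch1 had 5961, 4676 and 5054 counts in Stem and 1180, 1053, 1813 and 1492 in SecPDG (log2 -1.91, adjusted p = 1.00e-05), and Notch2 fell by 1.88 on the log2 scale. Hes1, the repressor through which Notch blocks Atoh1, had 1338, 1357 and 1468 counts in Stem and 343, 598, 545 and 667 in SecPDG (log2 -1.37, adjusted p = 0.00278), with the adjusted p at 0.0241 without SecPDG replicate 1 and 0.0108 without SecPDG replicate 3. Nrarp, a feedback target of Notch, fell by 1.67. Jag1 at log2 -0.85, Rbpj at -0.23 and the Fringe gene Lfng at 0.88 were not called.

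Factors that specify secretory cells were higher in SecPDG. Of 20 transcription factors of secretory fate and maturation, 13 rose and none fell (median log2 2.35). Atoh1, the master factor of the lineage (chr6:64729125-64731245, GRCm38, plus strand), had 194, 174 and 265 counts in Stem and 5642, 9208, 6471 and 6895 in SecPDG, 33.4-fold higher (log2 5.06 ± 0.50, SE, adjusted p = 1.31e-11). Its target Spdef, a factor of goblet cell maturation, had 89.5, 61.5 and 239.9 counts in Stem and 6136, 7246, 6188 and 6024 in SecPDG, 48.9-fold higher (log2 5.61, or 6.43 without Stem replicate 3, adjusted p = 2.18e-13). Both genes were detected in each Stem library, far below every SecPDG library. Gfi1, which keeps secretory progenitors from the enteroendocrine path, rose by log2 4.17, and Bhlha15 (Mist1), a factor of secretory cell architecture, by 4.07. Factors of other secretory branches were among those that rose, with Pou2f3 of tuft cells at 3.68 and Insm1 and Neurog3 of enteroendocrine cells at 2.61 and 2.38. The value of Pou2f3 was 8.21 without Stem replicate 1, which held nearly all of its Stem counts. Marker sums of both branches, given with the markers of other cell types, were also higher in SecPDG, and their part in these values was not tested. Sox4 at log2 -0.62 and the intestinal factors Cdx1 at 0.18 and Cdx2 at -0.42 were not called.

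**Figure D2:**
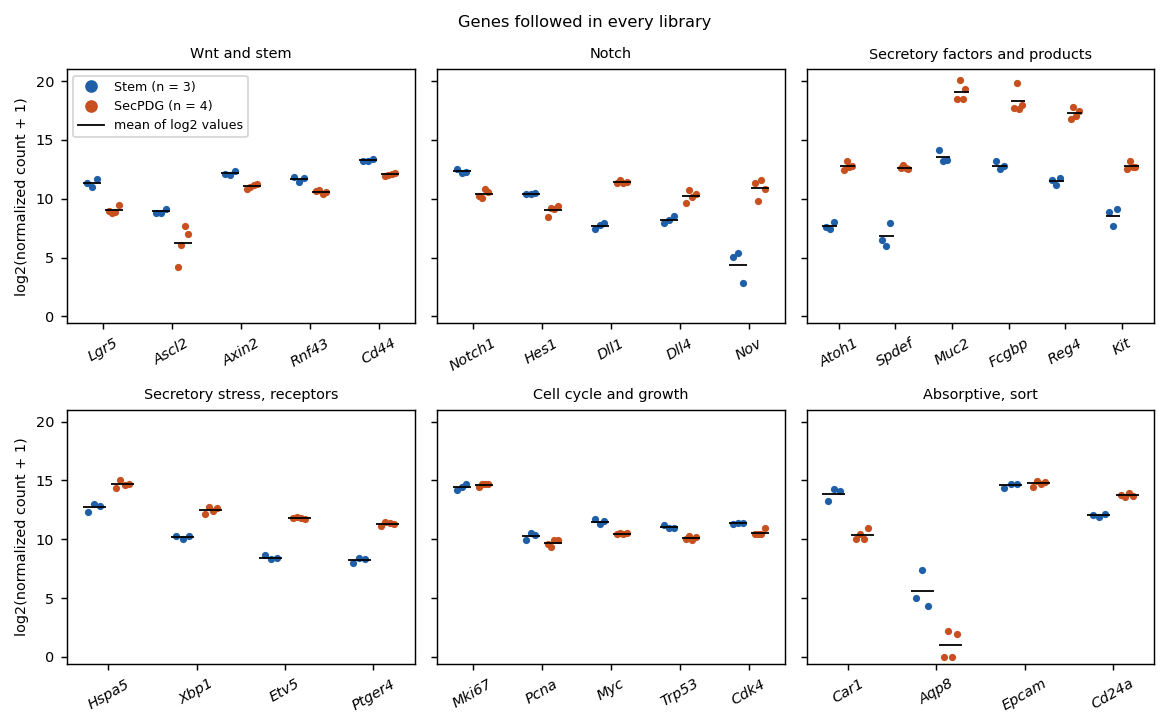
Level of 29 genes in each library as log2(normalized count + 1), on the vertical axis, with genes on the horizontal axis grouped by role. Each blue point is 1 of 3 Stem libraries, each orange point 1 of 4 SecPDG libraries, and the black line is the mean of the log2 values; stem and Notch receptor genes are lower and secretory genes higher in SecPDG, while Mki67, Pcna and Epcam overlap.

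Products of goblet and deep crypt secretory cells had the highest list medians. All 8 of 8 mucus and goblet cell genes rose (median log2 5.66), as did 12 of 16 deep crypt secretory and antimicrobial genes (median 5.21). The 12 include Kit, a marker named in both gates, so that its rise is not independent of the sort. Some genes belong to more than 1 list, so that the lists are not independent of each other. Agr2 is in both of these lists, Spdef in the goblet list and among the secretory factors, and Guca2a in the deep crypt and enterocyte lists. Muc2, the gel-forming mucin (chr7:141690340-141754693, GRCm38, plus strand), had 17620, 9243 and 9849 counts in Stem and 374500, 1143000, 358000 and 669300 in SecPDG. It was 52-fold higher (log2 5.70 ± 1.25, SE, adjusted p = 9.90e-04), and the adjusted p was 0.0196 without Stem replicate 1. Fcgbp, a mucus protein that associates with Muc2, rose from 9551, 5732 and 6900 to 212300, 912600, 205800 and 262300 counts. Clca1, a secreted protease of the mucus layer (chr3:145003817-145032776, GRCm38, minus strand), had 1736, 1593 and 705 counts in Stem and 54000, 856200, 59880 and 155400 in SecPDG. For these 3 genes SecPDG replicate 2 was the highest library, while every other SecPDG library was also far above every Stem library. Without replicate 2 the log2 of Fcgbp was 5.01 in place of 5.75 and that of Clca1 6.13 in place of 7.71. All 8 goblet genes were still called without SecPDG replicate 2, and the other 7 without Stem replicate 1.

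Reg4, the lectin that marks deep crypt secretory cells, had 3025, 2358 and 3556 counts in Stem and 113400, 231600, 135000 and 180500 in SecPDG, 55.4-fold higher (adjusted p = 1.37e-06). Ang4 (chr14:51763878-51773590, GRCm38, minus strand), an antimicrobial ribonuclease, had the highest fold of the called genes that were detected in every Stem library and did not overlap, with 86.4, 107 and 18.9 counts in Stem and 3966, 87380, 5731 and 17700 in SecPDG. SecPDG replicate 2 was the highest by far, and the log2 of 8.66 was 7.08 without it and 8.07 without Stem replicate 3. Itln1, a lectin that binds microbial sugars, had 40.5, 0 and 22.2 counts in Stem and 315, 4373, 320.1 and 611 in SecPDG. Its log2 of 6.10 also rests on SecPDG replicate 2 and was 4.44 without it, or 6.96 and 5.41 without Stem replicate 1 or 2. Pla2g2a, a secreted phospholipase, rose by log2 6.58, or 5.87 without SecPDG replicate 1, and was at 0 in every Stem library but replicate 3. Egf, the growth factor that deep crypt secretory cells supply to stem cells, had 136, 26.2 and 20.9 counts in Stem and 421, 1033, 654 and 655 in SecPDG (log2 3.55, or 4.85 without Stem replicate 1, adjusted p = 2.29e-07). Wnt3 rose by 5.92. The lysozyme gene Lyz1 at log2 3.57 and the lectins Reg3g at -1.03 and Reg3b at -2.18 were not called.

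Most genes of protein folding in the ER rose. Of 34 genes of the unfolded protein response, its sensors and ER chaperones, 20 rose and none fell (median log2 1.69), and 30 of the 34 did not overlap between groups, beside 18.6% of all genes tested. The chaperone Hspa5 (BiP) had 5210, 8265 and 7179 counts in Stem and 20520, 32900, 24670 and 26950 in SecPDG, 3.81-fold higher (log2 1.93 ± 0.45, SE, adjusted p = 0.00197, and 0.0382 without Stem replicate 1). Xbp1, the transcription factor activated when the sensor Ire1 splices its RNA, went from 1269, 1026 and 1237 to 4656, 6922, 5307 and 6497 counts (log2 2.31, adjusted p = 9.81e-06). Ern2, the Ire1 form of mucus-producing epithelia, rose by 2.92 and the general form Ern1 by 1.34. The sensors Eif2ak3 (Perk) and Atf6 rose by 2.36 and 1.60. The largest rises were in the disulfide isomerase Pdia5 at 3.98 and in Ndrg1 at 3.90. Ddit3 (Chop), the factor of terminal ER stress, stood at -0.29 and Atf4 at 0.73, and neither was called. Stem replicate 1 weighed most on this group, since 13 of the 34 were called without it.

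A response element known to bind the factors of this pathway was found in some of their promoters. The ER stress response element is read as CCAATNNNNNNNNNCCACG on either strand. It was present in 9 of the 26 list members that had a RefSeq promoter of 300 bases (GRCm38.p6, 250 before and 50 after the start), against 0.137% of 27025 genes with such a promoter. Of the 9 genes with a match 4 rose, with a median log2 of 1.49 over the 9, and of the 17 without one 11 rose, with a median of 1.7. The stretch around each match is given 5′ to 3′ on the strand of the gene, with the element in capitals, to show how the fixed ends flank a variable middle. Creld2, Calr, Hsp90b1 and Derl3 hold it on the other strand, so that it reads CGTGG first, and Hsp90b1 holds it at 2 places, of which 1 is shown. The first 4 genes rose and the others were not called.
Hspa5, chr2:34772015-34772053, plus strand: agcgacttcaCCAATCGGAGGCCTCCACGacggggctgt
Dnajc3, chr14:118937817-118937855, plus strand: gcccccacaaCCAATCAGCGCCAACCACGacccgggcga
Pdia6, chr12:17266481-17266519, plus strand: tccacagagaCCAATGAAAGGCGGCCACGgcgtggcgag
Creld2, chr15:88819510-88819548, plus strand: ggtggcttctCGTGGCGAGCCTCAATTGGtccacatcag
Calr, chr8:84847065-84847103, minus strand: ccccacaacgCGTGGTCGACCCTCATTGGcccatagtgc
Hsp90b1, chr10:86705523-86705561, minus strand: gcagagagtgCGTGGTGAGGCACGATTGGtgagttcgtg
Syvn1, chr19:6046522-6046560, plus strand: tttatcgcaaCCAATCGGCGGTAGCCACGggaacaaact
Canx, chr11:50325790-50325828, minus strand: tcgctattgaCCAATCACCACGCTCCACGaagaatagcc
Derl3, chr10:75893232-75893270, plus strand: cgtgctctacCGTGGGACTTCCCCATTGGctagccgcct

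The log2 fold changes of these genes ran from 1.93 for Hspa5 and 1.93 for its co-chaperone Dnajc3 to 0.27 for the lectin chaperone Canx and -0.29 for Derl3. The list was chosen for genes of this pathway, so that the share with a match was in part set by that choice. A match is a description of these letters only.

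Some genes of transport into and out of the ER rose. Of 50 genes of protein entry into the ER and of COPI and COPII vesicles, 19 rose and none fell (median log2 1.06), and 49 of the 50 had a positive fold change. The KDEL receptor Kdelr3, which returns chaperones to the ER, had 45.1, 47.4 and 70.1 counts in Stem and 916, 1293, 1285 and 1198 in SecPDG (log2 4.43, adjusted p = 1.38e-11). Sec24d, a cargo adaptor of COPII coats, rose by 3.38, while its relatives Sec24b and Sec24c stood at 0.03 and 0.38 and were not called. The count was 8 without Stem replicate 1, 33 with DESeq2 and 41 in a fit of the 7 libraries alone. Of 42 glycosyltransferases and sulfotransferases, 27 rose and 1 fell (median 2.06, or 1.93 with genes at 0 in a group at their bound). Galnt5, which starts O-glycans on mucins, had 152, 108 and 185 counts in Stem and 4286, 6902, 4508 and 4586 in SecPDG. B3gnt6, the core 3 synthase of the colon, had 126, 51.9 and 27.6 and 2206, 1897, 1822 and 2008 (log2 4.90, or 5.63 without Stem replicate 1). St6gal1, a sialyltransferase, rose by log2 4.73 and Gcnt1, a core 2 enzyme, by 4.69, with Stem counts in replicate 3 alone. The 1 enzyme that fell was Gcnt4, another core 2 enzyme, with 83.4, 217 and 224 counts in Stem and 0, 14.9, 11.8 and 40.1 in SecPDG (log2 -3.41, or -4.35 without SecPDG replicate 4, adjusted p = 3.54e-05).

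Of 33 genes of granules and regulated exocytosis, 11 rose and none fell. Ptprn2, a granule membrane protein better known from endocrine cells, had 76.5, 50.6 and 88.3 counts in Stem and 4749, 6353, 5753 and 4771 in SecPDG (log2 6.24 ± 0.51, SE, adjusted p = 2.18e-13). Sytl2, which tethers granules through Rab27, the actin-severing Scin and the calcium sensor Syt7 rose by 5.03, 4.76 and 4.54. Scin stood at 3.75 without SecPDG replicate 2, its highest library, and Sytl2 at 5.66 without Stem replicate 1. The SNARE genes Stx3 at 0.52, Snap23 at 0.81 and Vamp8 at -0.11 were not called. Of 32 genes of amino acid supply, transfer RNA charging and the response to Atf4, 6 rose and 1 fell, or 10 and 2 in a fit of the 7 libraries alone. The 7 called are 21.9% of the list, beside 4.98% of all genes. Pycr1, the last enzyme of proline synthesis, had 24.5, 44.2 and 27.6 counts in Stem and 103, 715, 369 and 435 in SecPDG (log2 3.60, adjusted p = 1.94e-06), and Aldh18a1, the first, rose by 1.14. Slc7a11, the cystine importer, and Asns, which makes asparagine, rose by 2.47 and 1.71, and Slc7a11 was at the threshold without Stem replicate 2 (adjusted p = 0.01). The serine enzymes Phgdh at -1.08 and Psat1 at 0.47 were not called, and Shmt1, which converts serine to glycine, fell by 1.29 and was not called without SecPDG replicate 1 or 2.

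The letters TGATGCAA, a form of the element that Atf4 binds, were found in 7 of 23 list members with a promoter and in 1.03% of all genes with one, on either strand. The list was drawn up around Atf4, so that this share was in part set by the choice of members. Of these 7 genes 3 rose (median log2 1.33), and of the 16 without the letters 3 rose (median 0.35). Of the 7, Aars rose by log2 1.33 and Chac1, Tars, Yars and Iars were not called, and these are not shown. The stretches of Pycr1 and Slc7a11, which had the largest rises of the 7, are shown on the strand of the gene, with the element in capitals. Slc7a11 holds it on the other strand and at 2 places, of which 1 is shown.
Pycr1, chr11:120643833-120643862, minus strand: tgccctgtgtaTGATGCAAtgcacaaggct
Slc7a11, chr3:50443642-50443671, minus strand: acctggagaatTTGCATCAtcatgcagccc

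Few cell cycle genes were called. Mki67, the proliferation marker, had 18360, 22300 and 26130 counts in Stem and 22160, 26630, 26580 and 27180 in SecPDG. The groups overlapped, and the log2 fold change of 0.20 ± 0.45 (SE) had an adjusted p of 0.899 and became -0.02 under library totals. Of 47 mitosis genes, 1 rose and none fell (median -0.12, whose sign turned under some alternatives), or 2.13% beside 4.98% of all genes. Under library totals 1 rose and 3 fell. The 1 gene was Plk1, a kinase of mitotic entry, with 1389, 1655 and 1481 counts in Stem and 4259, 5084, 3924 and 4894 in SecPDG (log2 1.59, adjusted p = 5.99e-04). Of 52 DNA replication genes, 1 fell and none rose. That gene was Pola2, a subunit of the polymerase that primes replication (log2 -1.29), and it was not called without Stem replicate 1 or SecPDG replicate 1. Of the 52 members, 49 had a negative fold change, with a median of -0.51, and 20 did not overlap, beside 18.6% of all genes tested. The 1 called gene is 1.92% of the list, beside 1.60% of all genes called lower. Under library totals 6 fell, and 7 in a fit of the 7 libraries alone. Pcna, the sliding clamp, had 986, 1444 and 1321 counts in Stem and 793, 633, 970.4 and 1002 in SecPDG with overlap (log2 -0.55, adjusted p = 0.359).

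Among 28 genes of G1 control, 2 rose and none fell, but 6 fell under library totals, 3 in a fit of the 7 libraries alone and 2 with DESeq2. The 2 that rose are 7.14% of the list, beside 3.38% of all genes called higher. Cdkn1c (p57), an inhibitor of cyclin-dependent kinases, had 45.9, 25 and 36.4 counts in Stem and 206, 170.3, 124 and 124 in SecPDG (log2 2.13, adjusted p = 0.00315), and Ccnd3, cyclin D3, had 394, 432 and 281 and 1338, 1187, 825 and 937 (log2 1.53). Neither was called without Stem replicate 3, nor Cdkn1c without Stem replicate 2 or SecPDG replicate 1. Cdk4 had 2550, 2640 and 2731 counts in Stem and 1367, 1399, 1435 and 1946 in SecPDG (adjusted p = 0.107), and Trp53 had 2387, 1944 and 1969 and 1050, 1268, 979 and 1199 (adjusted p = 0.0401). Both were lower in every SecPDG library and missed the threshold. Of 61 genes of the nucleolus and ribosome assembly, 6 fell and none rose (median -0.56), and 54 of the 61 had a negative fold change. The 6 are 9.84% of the list, beside 1.60% of all genes called lower. Rrp9, a processing factor of the ribosomal RNA, went from 756, 750.2 and 647 to 74.7, 265, 349 and 333 counts (log2 -1.49, adjusted p = 0.00213), and Gar1 and Fbl, which modify ribosomal RNA, fell by 1.40 and 1.38. This count of 6 was 0 without SecPDG replicate 2, 1 without SecPDG replicate 1 or Stem replicate 2, and 2 without SecPDG replicate 3 or Stem replicate 3, while it was 17 under library totals and 16 in a fit of the 7 libraries alone.

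**Figure D3:**
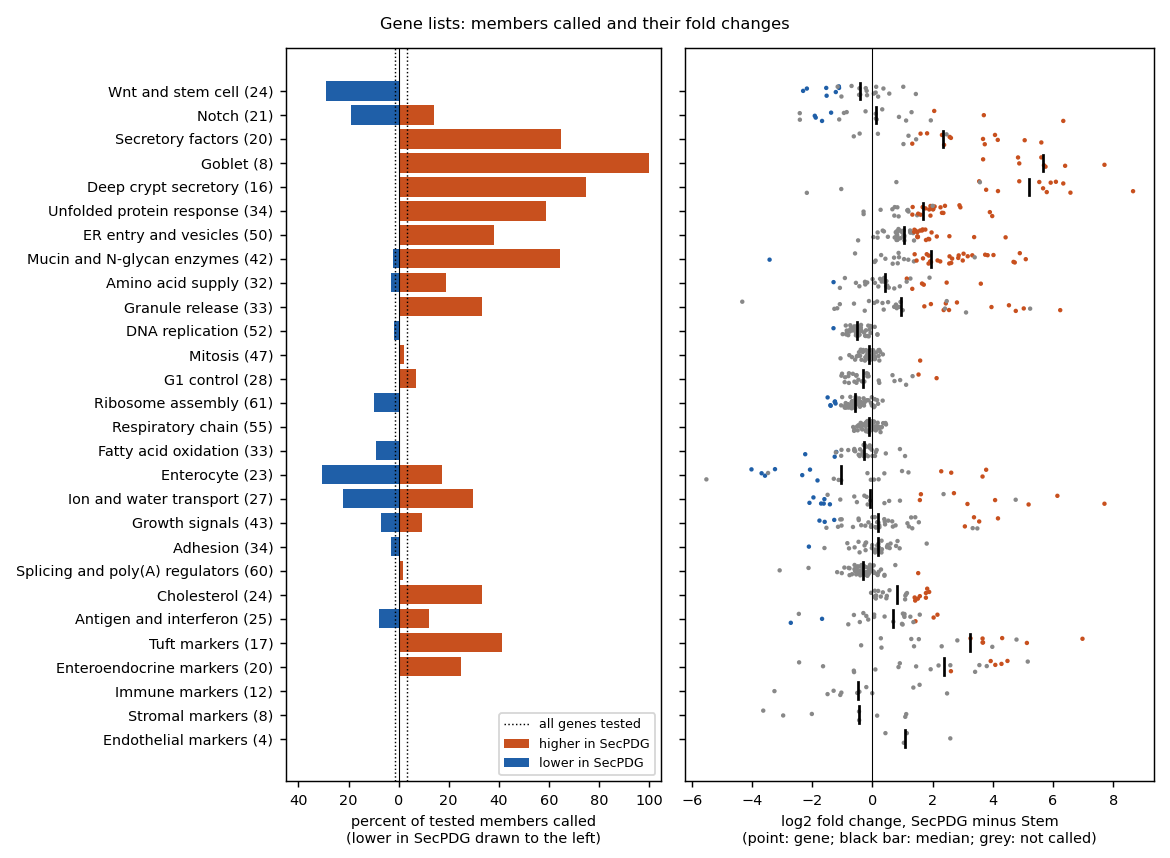
Left, percent of the tested members of each of 28 gene lists (number tested in parentheses) that were called higher (orange, to the right) or lower (blue, to the left) in SecPDG, with dotted lines at the shares over all genes tested (3.38% and 1.60%). Right, log2 fold change of each member with the list's median as a black bar, where genes at 0 in a whole group are drawn at a lower bound; secretory lists lie to the right of 0, and the replication and ribosome lists lie to the left of it with few calls.

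More absorptive markers fell than rose. Of 23 enterocyte markers, 7 fell and 4 rose (median -1.04). Car1, a carbonic anhydrase of colonocytes, had 9784, 20150 and 17390 counts in Stem and 1024, 1359, 1022 and 1935 in SecPDG, 11.8-fold lower (log2 -3.57 ± 0.60, SE, adjusted p = 1.52e-05). The chloride and bicarbonate exchanger Slc26a3 went from 311, 674 and 706 to 17, 74.6, 22.7 and 71.5 counts, and Emp1, a membrane protein, from 369.5, 654 and 520.2 to 29.3, 47.2, 18.5 and 37.2. Cyp2c55, a cytochrome of the colon, fell by 3.23. Aqp8, a water channel, had only 30.6, 162 and 19.5 counts in Stem and 0, 3.73, 0 and 2.94 in SecPDG, and at adjusted p = 0.0177 it was not called. The 4 members that rose include guanylin and uroguanylin, peptides that secretory cells also make. Guca2a had 1175, 729.8 and 889 counts in Stem and 9461, 15500, 9944 and 16190 in SecPDG, and Guca2b rose by 2.62. Scnn1a, a subunit of the epithelial sodium channel, and Cdhr5, a brush border cadherin, rose by 3.66 and 2.29.

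Of 27 genes of ion and water transport, 8 rose and 6 fell. Those that fell include the chloride channel Cftr, with 7434, 9002 and 10640 counts in Stem and 2911, 2320, 2573 and 3285 in SecPDG (log2 -1.70, adjusted p = 9.87e-04), the potassium channel Kcnq1 (log2 -1.96), Clcn2 (-2.09) and the sodium bicarbonate carrier Slc4a4 (-1.61). Those that rose include Best2, the bicarbonate channel of goblet cells, with 13.8, 7.04 and 16.2 counts in Stem and 1378, 799.5, 774 and 529.8 in SecPDG (adjusted p = 2.71e-11). The calcium-activated family members Ano1 and Ano7 rose by 4.08 and 5.19. The sodium, potassium and chloride carrier Slc12a2 stood at -0.19 and was not called.

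Among metabolic lists, a few genes of fat oxidation fell and a set of cholesterol genes rose. Of 33 genes of fatty acid oxidation and ketogenesis, 3 fell and none rose, while 5 fell and 2 rose with DESeq2 and 7 fell and 1 rose under library totals. The 3 are 9.09% of the list, beside 1.60% of all genes called lower. The fatty acid sensor Ppara fell by 1.25 and Eci1 by 1.20, and Ppara was not called when any 1 of the 7 libraries was left out. The list held 1 lower gene without any 1 Stem library or SecPDG replicate 3 and 0 without SecPDG replicate 1 or 2, and 1 gene was higher without Stem replicate 3. Cpt1a, which brings fatty acids into mitochondria, stood at -0.09 and was not called. None of 55 nuclear genes of the respiratory chain was called by edgeR (median -0.10, whose sign turned under some alternatives), and their log2 fold changes ran from -0.64 to 0.45. At an unadjusted p under 0.05 there were 0 of them as well, and DESeq2 called 0. Of 24 genes of cholesterol synthesis and uptake, 8 rose and none fell (median 0.83). Msmo1, a sterol demethylation enzyme, had 385, 587 and 593 counts in Stem and 1453, 2207, 1930 and 2165 in SecPDG, and the regulator Insig1 and the demethylase Cyp51 rose by 1.82 and 1.78. Without Stem replicate 1, 2 of the 24 were called, and Msmo1 and Cyp51 were not among them.

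Among 43 genes of growth signals, 4 rose and 3 fell, or 6 and 6 under library totals. The 7 called are 16.3% of the list, beside 4.98% of all genes. Kit, a marker named in both gates, is 1 of the 4 that rose. Etv5, a factor that FGF and Ras signals induce, had 396, 320.1 and 329.5 counts in Stem and 3672, 3734, 3587 and 3450 in SecPDG, 10.4-fold higher (log2 3.38 ± 0.34, SE, adjusted p = 2.20e-11). Ptger4, a receptor of prostaglandin E2, had 252, 346 and 318 and 2303, 2868, 2626 and 2526 (adjusted p = 3.06e-09). The ligand of Kit moved against its receptor, as Kitl had 1919, 1693 and 2485 counts in Stem and 705, 832, 862 and 981 in SecPDG (log2 -1.27, adjusted p = 0.00222). That call was lost without SecPDG replicate 1 or 2, at adjusted p = 0.0124 and 0.0117. Fgfr4 fell by 1.76 and Fgfbp1, which releases FGF from the matrix, by 1.58, and the latter was not called when any 1 of the 7 libraries was left out. Without SecPDG replicate 1 or 2 the list held 1 lower gene. Egfr at 0.16 and Spry2 at 0.20 were not called.

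Of 34 adhesion and junction genes, 1 was called lower, or 2.94% beside 1.60% of all genes called lower. DESeq2 called 1 higher and none lower, and a fit of the 7 libraries alone 5 higher and 2 lower. The 1 gene called by edgeR was Cldn8, a sealing claudin, with 329.7, 294 and 274 counts in Stem and 14.2, 49.7, 90.1 and 118 in SecPDG (log2 -2.11, adjusted p = 0.00134), and it was not called without SecPDG replicate 1. Among 60 regulators of splicing and polyadenylation, Khdrbs3, an RNA-binding protein, rose (log2 1.52) and no other was called. That is 1.67% of the list, beside 3.38% of all genes called higher. Regulators that fell were 8 under library totals, 5 in a fit of the 7 libraries alone, 4 with DESeq2 and 1 without Stem replicate 1 or SecPDG replicate 4. Of 25 genes of antigen presentation and interferon response, 3 rose and 2 fell, or 1 and 3 under library totals and 7 and 3 in a fit of the 7 libraries alone. The 5 called are 20% of the list, beside 4.98% of all genes. The interferon factor Irf7 had 319.8, 401 and 453 counts in Stem and 1446, 1261, 1712 and 2002 in SecPDG (log2 2.04, adjusted p = 2.77e-05). H2-Eb1, a class II chain, had 174, 194 and 236 and 20.8, 27.4, 18.5 and 57.8 (log2 -2.71, adjusted p = 2.00e-04), and the class II invariant chain Cd74 fell by 1.67. Tap2 rose by 1.43 and Ifit1 by 2.16, with overlap of the groups for Ifit1, which stood at 1.48 without SecPDG replicate 1. Neither was called without Stem replicate 1 or 3, Ifit1 also not without SecPDG replicate 1 and Tap2 also not without SecPDG replicate 2 or 4. Summed counts of 12 immune cell markers were 71.9 to 110 in Stem and 11.8 to 113 in SecPDG, and their part in these values was not tested. The class II genes H2-Aa at -0.61 and H2-Ab1 at -0.30 were not called.

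Markers of other cell types were counted in the same way. Of 17 tuft cell markers, 7 rose and none fell. Their summed normalized counts were 155 to 344 in Stem libraries, 1280 to 1640 in SecPDG libraries and 39600 to 109000 in the 5 tuft cell libraries. Gnat3, Gng13, Rgs13 and Il25 were at 0 in every Stem library, and no marker was at 0 in every SecPDG library. Pou2f3, the factor of tuft cell fate, had 33.7, 0 and 0.674 counts in Stem and 116, 134, 124 and 164 in SecPDG, and Rgs13 had none in Stem and 131, 37.3, 108 and 73.5 in SecPDG. Of 20 enteroendocrine markers, 5 rose and none fell, while 2 rose without Stem replicate 1 or 2 and 8 with DESeq2. Their sums were 1080 to 1260 in Stem, 5520 to 9360 in SecPDG and 610000 to 1750000 in the 2 enteroendocrine libraries. In the 3 libraries of absorptive progenitors the sums were 5110 to 21900, so that this level was not particular to SecPDG. Compared with those progenitors, 4 of the 20 markers were lower in SecPDG and 0 higher (median log2 -1.16). Chga, the granule protein of these cells, had 135, 62.1 and 8.76 counts in Stem and 1142, 501, 1254 and 1147 in SecPDG (log2 3.93, or 4.82 without Stem replicate 1, adjusted p = 0.00607), and among the 7 fits that left out a library it was called without SecPDG replicate 2 only. The peptides Insl5 at -2.43, Pyy at -1.64 and Gcg at 0.87 were not called. Only Cck, a hormone gene, was at 0 in every Stem library, and no marker was in SecPDG. How much of these values came from cells of either type within the SecPDG sort was not tested. None of the 12 immune, 8 stromal and 4 endothelial markers was called by edgeR or DESeq2. At an unadjusted p under 0.05 edgeR gave 0, 2 and 0 of them, and their sums in SecPDG were 11.8 to 113, 50.1 to 235 and 92.6 to 298 counts.

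Of the 12 called genes without overlap that had the largest fitted increase, 7 had no count in any Stem library. For these the fold is a lower bound against 3 counts over the Stem group, so that their place among the 12 is not settled. Samd5 (chr10:9622936-9675208, GRCm38, minus strand) had 357, 363, 404 and 271 counts in SecPDG and was at least 504-fold higher. The metallothionein Mt3 was at least 211-fold higher, Rgs13 126-fold, Etnppl 126-fold, Clca2 123-fold (57.5-fold without SecPDG replicate 2), the phosphate carrier Slc34a1 116-fold and Hapln4 108-fold. Clca2, Slc34a1 and Hapln4 were not called without any 1 of the Stem libraries. Clca2 and Hapln4 were also not called without SecPDG replicate 2, nor Slc34a1 and Hapln4 without SecPDG replicate 3. Ang4, Aldh1l2, a mitochondrial folate enzyme, Clca1 and Agap2 were also among the 12 largest increases. Aldh1l2 had 0, 0 and 3.37 counts in Stem and 84.1, 681, 312 and 228 in SecPDG, where replicate 2 was the highest. Agap2, with 1 Stem library above 0, had 0, 0 and 0.674 counts in Stem and 156, 38.5, 16.9 and 11.8 in SecPDG, where replicate 1 was the highest. Its log2 of 7.31 was 5.90 without that replicate, and of the 7 fits without 1 library it was called in those without SecPDG replicate 3 or 4. The minimum mean of 50 was taken over the 22 libraries. Over the 7 compared libraries Rgs13, Etnppl, Slc34a1, Clca2, Hapln4 and Agap2 averaged less than 50, so that other cell types carried them over it. Clca2 had 117 to 245 counts in enterocyte libraries and Agap2 51.3 to 240, each reaching above its highest SecPDG value.

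The largest decreases included genes of absorptive cells. Slc37a2, a sugar phosphate exchanger (chr9:37227585-37255738, GRCm38, minus strand), had 1391, 2472 and 2777 counts in Stem and 14.2, 189, 133 and 215 in SecPDG, 16.4-fold lower (log2 -4.03 ± 0.57, SE, adjusted p = 2.97e-07). Slc51a and Slc51b, the 2 subunits of the basolateral bile acid exporter, had 144, 160 and 102 and 70.4, 35.9 and 53.2 counts in Stem against 0, 17.4, 11.8 and 13.7 and 6.62, 2.49, 5.05 and 4.9 in SecPDG. Slc51b was near the threshold (adjusted p = 0.00894) and was called in 1 of the 7 fits without 1 library, that without Stem replicate 2. Its mean over the 7 libraries was also under 50, where the minimum mean was taken over the 22 libraries. The steroid enzyme Hsd3b2 went from 265, 337 and 311 to 10.4, 22.4, 15.2 and 37.2 counts. Rgs11 fell by 3.58, 4931440F15Rik by 3.53 and Dnase1, a secreted nuclease, by 3.39. Without SecPDG replicate 4 these stood at -4.23, -4.13 and -4.26. Dnase1 fell under the minimum mean without any 1 of the Stem libraries. Mir17hg, the host of a microRNA cluster known for proliferating cells, had 91.8, 152 and 272 counts in Stem and 0, 28.6, 2.53 and 42.1 in SecPDG (log2 -3.34, adjusted p = 3.20e-04), and was not called without Stem replicate 3 (adjusted p = 0.0123). Its log2 was -4.31 without SecPDG replicate 4. Emp1, Slc26a3, Car1 and Gcnt4, given above, complete the 12 genes.

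To see whether these differences also set SecPDG apart from the other progenitor, SecPDG was compared with absorptive progenitors (AbsPro, 3 libraries) in the same fit. This comparison shares its SecPDG libraries with the one above. In it 2.00% of the genes tested were higher in SecPDG and 1.73% lower. Secretory lists were again higher, with 11 of 20 secretory factors, 10 of 16 deep crypt genes, 14 of 34 unfolded protein response genes and 19 of 42 glycan enzymes called, while 2 deep crypt and 2 glycan genes were lower. The other secretory lists had 4 of 8 goblet genes, 8 of 50 genes of ER entry and vesicles and 8 of 33 granule genes higher, and 1 granule gene lower. Of the 24 Wnt and stem cell genes, 1 was higher and none lower (median log2 0.08). Lgr5 had 368, 890 and 566 counts in AbsPro, at a log2 of -0.20 for SecPDG minus AbsPro (adjusted p = 0.935), and both lay below all Stem libraries. Atoh1 had 1140, 440 and 1950 counts in AbsPro, between the Stem and the SecPDG libraries (SecPDG minus AbsPro log2 2.59, adjusted p = 1.08e-05). Muc2 had 63500, 29200 and 88400 counts there, also in between, and its log2 of 3.40 over AbsPro was not called (adjusted p = 0.0545).

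For absorptive genes the order was another one. Of the 23 enterocyte markers 12 were lower and 1 higher in SecPDG than in AbsPro. Car1 had 55400, 62100 and 84900 counts in AbsPro, Slc26a3 2490, 2060 and 3490 and Slc37a2 8660, 11700 and 13600, so that Stem libraries lay between SecPDG and AbsPro for all 3. Summed over the list, enterocyte markers reached 62500 to 83200 counts in Stem, 79300 to 160000 in SecPDG and 168000 to 229000 in AbsPro. The sums of Stem and SecPDG overlapped, with abundant members such as Guca2a among those that rose. Sums of the replication list were 61200 to 73900 in Stem, 41100 to 55700 in SecPDG and 31600 to 44100 in AbsPro, and those of the mitosis list 78800 to 102000, 77000 to 103000 and 53400 to 77100. SecPDG was also compared with the 5 tuft cell libraries in the same fit. The lists of secretory factors, deep crypt genes, unfolded protein response and glycan enzymes each had 0 genes higher in SecPDG and 1 lower. The ER entry and vesicle list had 0 called, and granule genes 0 higher and 2 lower, while 2 goblet genes were higher. Muc2 had 378000 to 970000 counts in tuft libraries, so that this level was not particular to SecPDG.

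**Figure D4:**
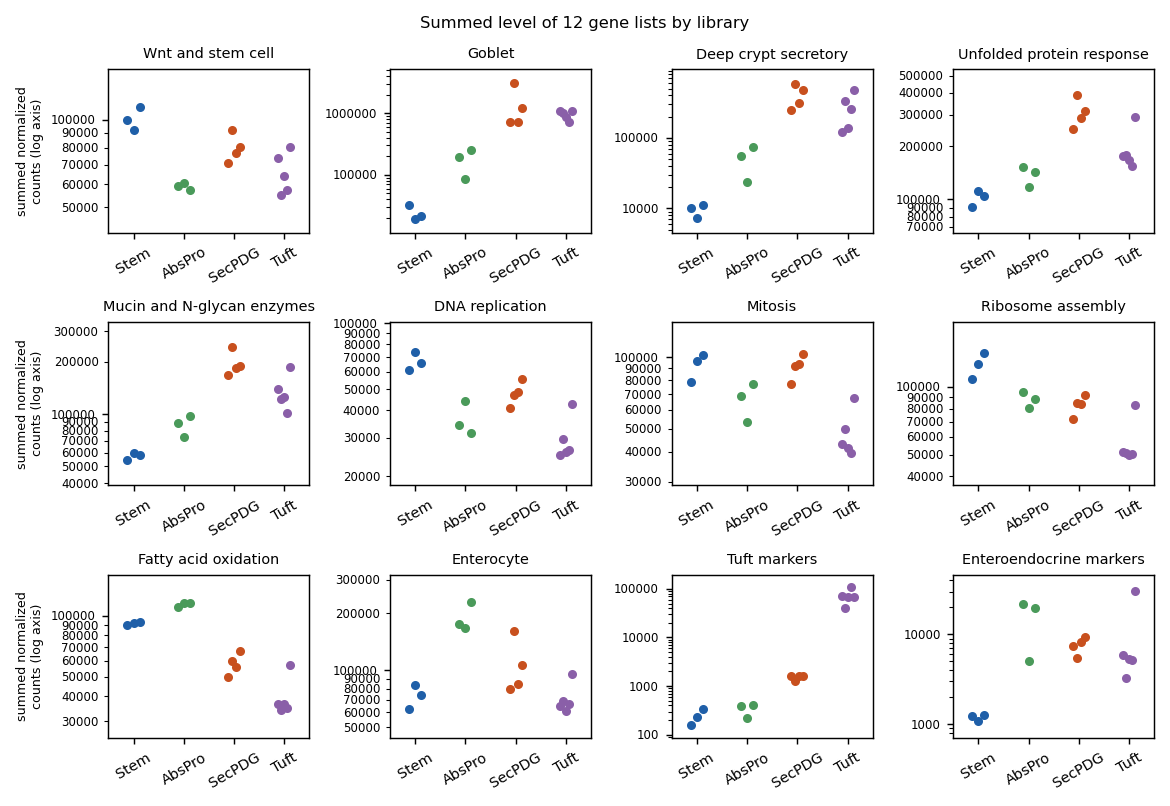
Summed normalized counts (log axis) of 12 gene lists in each library of Stem, AbsPro, SecPDG and tuft cells, 1 point per library. Goblet, deep crypt and unfolded protein response sums are lowest in Stem and overlap between SecPDG and tuft libraries, mitosis sums overlap between Stem and SecPDG, and tuft markers are far higher in tuft libraries than in SecPDG.

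Alternative exons were compared from counts of reads that include or skip an exon, with inclusion as the percent of length-corrected counts. Of 6150 events, 798 had at least 20 such counts in every library and at least 10 of each kind in all, and 0 were called by edgeR at an adjusted p under 0.05 (0% of the events tested). At an unadjusted p under 0.05 there were 9 events with edgeR and 36 with limma on log2 ratios, which called 1. That event was a 21-base exon of Blzf1, a Golgi protein, included at 100, 82.7 and 23.6% in Stem and 0, 0, 0 and 4.16% in SecPDG. Single libraries varied widely within a group, and 47.4% of all inclusion values were 0 or 100%. The groups did not overlap for 31 of the events (3.88%).

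Events of genes that the study reported for their splicing in these same libraries show the size of this spread. Because of that choice, a lack of overlap among them is not independent of the study's result. The study called skipped exon events with rMATS, another test, at a false discovery rate under 0.05. Values are in the order of the table, whose places cannot be tied to replicate numbers. A 107-base exon of Eif4a2, a translation initiation helicase (chr16:23112351-23112457, mm10, plus strand), was included at 46.8, 38.8 and 36.2% in Stem and 0, 13, 7.19 and 13.7% in SecPDG (edgeR adjusted p = 0.759). An exon of Itga6, the laminin receptor chain (chr2:71853534-71853663, mm10, plus strand), had 63.2, 43 and 43.3% and 0, 22.5, 33.4 and 31.9%. An exon of Ctnnd1, the p120 catenin (chr2:84605184-84605246, mm10, minus strand), had 95.4, 78.6 and 83.7% and 57.3, 69.6, 18.1 and 59.8%. In these 3 genes every SecPDG value was below every Stem value and none was called. For Spen, a corepressor of Notch targets, the groups overlapped at 14.5, 97.6 and 57% in Stem and 100, 91.6, 95.2 and 94% in SecPDG. No event of Cbfa2t2 or Kitl had enough counts. One event was chosen after its values were seen, because its gene was the sort marker. A 120-base exon of Cd44 (chr2:102839358-102839477, mm10, minus strand) was included at 25.7, 27.4 and 19.7% in Stem and 44.6, 53.8, 43.0 and 56.7% in SecPDG, with an adjusted p of 0.81.

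**Figure D5:**
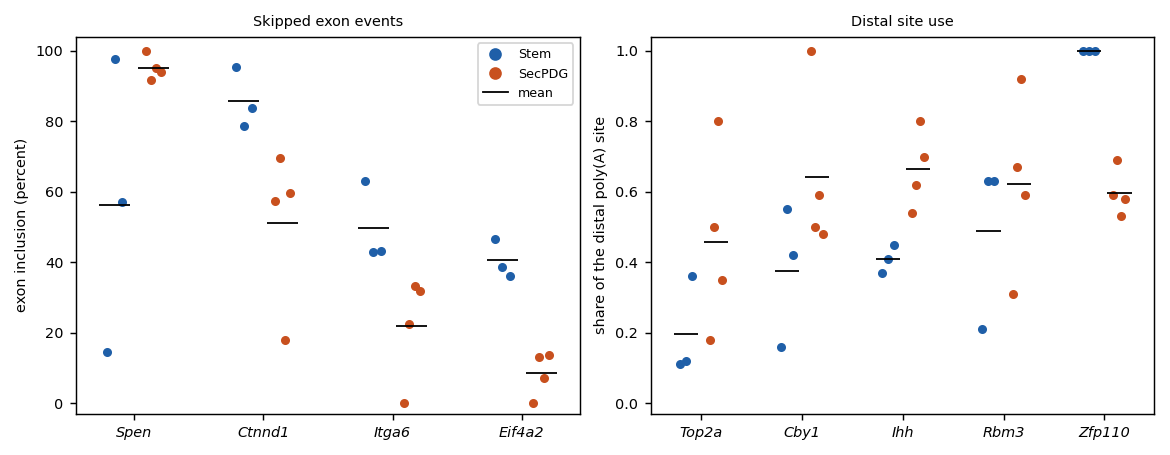
Left, percent inclusion of 4 skipped exons in each library; right, share of the distal polyadenylation site of 5 genes. Blue points are Stem, orange points SecPDG and black lines means; Eif4a2, Itga6, Ctnnd1, Ihh and Zfp110 do not overlap between the groups, and only Zfp110 was called.

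Use of the distal polyadenylation site, estimated by DaPars as a share from 0 to 1, was tested for 3733 transcripts of 3489 genes with a value in every library. By limma 1 transcript (0.0268%) was called at an adjusted p under 0.05, and 195 had an unadjusted p under 0.05. The groups did not overlap for 224 transcripts (6.00%). The median change was 0.0008, and the mean share was higher in SecPDG for 50.2% of transcripts. The called gene was Zfp110, a zinc finger gene, whose distal share was 1, 1 and 1 in Stem and 0.59, 0.69, 0.53 and 0.58 in SecPDG (adjusted p = 0.00198). It was not called on the scale of the share itself. The study called polyadenylation changes with DaPars itself, another test, at an adjusted p under 0.05. The genes that follow were the study's own examples of such changes, taken from these same libraries. Ihh, the Hedgehog ligand of the epithelium, had 0.37, 0.41 and 0.45 in Stem and 0.54, 0.62, 0.8 and 0.7 in SecPDG without overlap, at adjusted p = 0.836. Top2a, the topoisomerase of dividing cells, had 0.11, 0.12 and 0.36 in Stem and 0.18, 0.5, 0.8 and 0.35 in SecPDG. Cby1, a beta-catenin antagonist, had 0.16, 0.55 and 0.42 in Stem and 1, 0.5, 0.59 and 0.48 in SecPDG, and Rbm3, a cold-induced RNA-binding protein, had 0.21, 0.63 and 0.63 in Stem and 0.31, 0.67, 0.92 and 0.59 in SecPDG. The groups overlapped for these 3. Depth per transcript is not given in these shares, so that no counting error can be stated. No transcript of Wdhd1 had a value in every library.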

How the data were processed

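RNA of 22 sorted libraries was sequenced from low-input kits, and 3 Stem and 4 SecPDG libraries were compared. The authors aligned reads to mm10 (STAR 2.5.2a) and deposited raw counts per gene from HTSeq 0.6.1p1, made without strand, so that a gene and an antisense partner cannot be told apart and members of close gene families are uncertain. Of the reads counted in the 7 libraries, 40.85% to 48.51% fell in no gene, and 5 entries that name no gene were left out. The deposited exon table from rMATS gives whole-number inclusion and skipping counts per library, joined by commas in 1 column for each group, and the deposited DaPars table gives the fraction of transcripts that use the distal site. The authors' own fold changes, p-values and junction probabilities, in these tables and in that of MAJIQ, were not used.

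Genes were tested with edgeR 4.0.16 (bias-adjusted quasi-likelihood fit, filterByExpr, TMM) on the 22 libraries with cell type as the only term. Exons were tested with edgeR on paired inclusion and skipping counts, and distal shares with limma 3.58.1 on log2((share + 0.01)/(1 - share + 0.01)), each with Benjamini-Hochberg adjustment. Log2 fold changes come from these fits, computed in R 4.3.3, and DESeq2 1.42.0 was an alternative. The SE of a gene was derived from its fitted coefficient and the F statistic of its test. A fold against a group at 0 was bounded with 3 counts over that group. All scripts were tested on simulated data, in which most of the smallest gene changes, and exon changes under a wide spread between libraries, were missed, so that a gene or exon not called is not shown to be equal. Named genes were 29 fixed genes, the 12 largest changes in each direction among called genes without overlap, and up to 4 called members in each direction of every list. Some of these genes are not reported here. Members given as not called, and Neurog3, Wnt3, Ern1, Eif2ak3, Atf6 and Aldh18a1, were chosen after their values were seen. The libraries, gene lists and tests were chosen with earlier results of these data known. Coordinates of genes are from the GENCODE annotation of GRCm38. Alternatives changed the test, scaling, filters, thresholds and libraries, 1 at a time.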

Additional observations from a re-analysis of the deposited data

Results flagged for a closer look

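Within the 4 SecPDG libraries, 10 of 79 groups of values examined had 1 library set apart from the other 3 by Dixon's ratio. For independent values with a normal distribution, about 1 in 20 would be set apart. The values here are counts that were not transformed, and some sums hold genes that were also examined. The 2 rates can therefore not be compared. SecPDG replicate 2 was the highest for Spdef (7250 normalized counts), Fcgbp (913000), Ang4 (87400) and Clca1 (856000). The same library was highest for the summed secretory factors (93100) and the summed ion and water transport genes (1070000), a sum that includes Clca1, and it was lowest for the summed tuft markers (1280). SecPDG replicate 4 was the highest for Lgr5 (718) and Cdk4 (1950), and SecPDG replicate 1 was the lowest for Mki67 (22200). The causes of these differences were not tested. Without SecPDG replicate 2, 660 genes were higher and 212 lower in SecPDG than in Stem.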

How the results depend on the processing

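The number of genes called, 1134, was 1868 with DESeq2 (1033 shared), 1880 with library totals (1065 shared), 2179 in a fit of the 7 libraries alone (1101 shared), 1712 at an adjusted p under 0.05 and 707 in the edgeR fit before bias adjustment, an alternative added after the data were seen (678 shared). Genes higher in SecPDG, 770, were 1357 with DESeq2 and 1438 in the fit of 7 libraries. Genes lower, 364, were 1050 with library totals, 741 in the fit of 7 libraries, 666 at the looser limit and 157 before bias adjustment. Leaving out 1 library gave 764 to 1013 genes in all, 517 to 719 higher and 203 to 340 lower. The cause of each shift was not tested, beyond the fewer libraries or other limit that defines it. Replicate numbers are not said to pair the samples. Correlations of deviations from the group means between same-numbered libraries were 0.00905, -0.1669 and -0.006297. With so few libraries per group, these values cannot show whether the samples are paired. With the replicate number as a block 1328 genes were called, 789 higher and 539 lower, of which 1117 were shared. No paired analysis was possible for exons and distal sites because places in those tables cannot be tied to replicate numbers. Library totals, which lower the median gene, turned the sign of 90 of 857 list members and named genes, 0 of them called, and Epcam (-0.0763) and Mki67 (-0.0223) are those among the 127 genes of the naming rule. Of these 127, 75 of the 119 called were called under every alternative. Limma called 1 exon event where edgeR called 0, and the test of the distal share itself called 0 transcripts, while leaving out 1 place gave 1 to 5. Depth limits genes near the minimum mean and events near 20 counts.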
